A study of Mus musculus with 6 samples.

Results

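The genes described here are the mitochondrial carriers named Slc25a followed by a number, taken as every row of the deposited table whose gene symbol has exactly that form. There are 47 of them among 50385 genes, and 41 of the 47 carried enough reads to be tested. Their RNA was measured in hearts of male Mdx/Utrn dKO mice, animals that lack both dystrophin and utrophin and serve as a model of Duchenne muscular dystrophy. The mice were 2 to 3 months old when dosing began; 3 libraries come from mice given setanaxib, which blocks the NADPH oxidase Nox4, by oral gavage at 60 mg/kg per day for 12 weeks, and 3 from mice given the corn oil vehicle for the same time. Vehicle and treated mice carry the same double knockout, and no wild-type heart was analysed here, so the comparison is of drug with vehicle inside the disease model. The labels do not say in words that each library is another animal, so p-values measure the spread between libraries only.

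The inner mitochondrial membrane is closed to most metabolites, and carriers of this family are the gates through it. They exchange ADP for ATP, bring in phosphate, pass acylcarnitines, amino acids and dicarboxylates, and supply nucleotides, coenzymes, glutathione and iron to the matrix. In heart muscle, which makes nearly all of its ATP in mitochondria, the ADP/ATP carrier Slc25a4 is among the most abundant proteins of that membrane. Members of the family that go by other names, the uncoupling proteins Ucp1 to Ucp3 and Mtch1 and Mtch2, lie outside the naming rule and are given only as neighbours.

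Values are CPM, the estimated counts divided by library size with factors that even out composition, and each set of 3 values is in the order of replicates 1 to 3. Libraries held 110803307 to 154003318 estimated counts, of which the 47 carriers took 0.325% to 0.356%. Nox4 was a low transcript (2.93, 1.82 and 5.99 CPM under vehicle and 1.06, 3.07 and 2.09 CPM under setanaxib), and Dmd and Utrn, counted over the whole gene and so no check of the genotype, overlapped between the groups. Heart muscle markers were plentiful, at a summed 41069.7 to 58205 CPM over 9 genes. Of 7 skeletal muscle markers, the myosins Myh1, Myh2 and Myh4 were listed at 0 in every library. Tnni2, Tnnt3 and Actn3 reached no more than 0.472, 0.132 and 0.165 CPM, and Ckm was at 661 to 1441 CPM. Setanaxib replicate 3 stood apart. The 4 atrial markers in the table, Nppa, Myl7, Myl4 and Dkk3, summed to 259, 125 and 589 CPM under vehicle and 68.8, 113 and 3129 CPM under setanaxib, the last of these values being that library's. They also differed within the vehicle group. Myl7 was at 23.3, 0.103 and 21.4 CPM under vehicle and 0.605, 1.33 and 637 CPM under setanaxib. Among vehicle libraries Nppa, Myl4 and Dkk3 were lowest in replicate 2 too. The adipocyte genes Plin1 and Cidec, both of lipid droplets, were at 8.71 and 50.2 CPM in it and at no more than 0.0662 and 1.71 CPM in the others, and the brown fat gene Ucp1 was at 10.3 CPM against at most 0.206 CPM. Of the 7 adipocyte markers, Lep (1.09 CPM) and Adipoq (0.0911 CPM, from 12 estimated counts) were above 0 in that library alone, and Elovl3 was listed at 0 in all. Cidea was also highest there (8.69, 8.92 and 9.75 CPM under vehicle and 10.1, 9.68 and 21.5 CPM under setanaxib). The most abundant of the list, Fabp4, which capillary endothelium expresses too, was not (149, 180.0 and 169 CPM under vehicle and 167, 242 and 215 CPM under setanaxib). Carriers whose values turned on this library are given with and without it.

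No carrier passed the test for a difference between setanaxib and vehicle. EdgeR's quasi-likelihood test, with Benjamini-Hochberg adjustment over all 20472 genes tested, called 0 of the 41 members at an adjusted p under 0.05, and the smallest adjusted p of a member was 0.486. Over the whole table that test called 1 gene, which is no carrier, or 0.00488% of genes. DESeq2 called 494 genes (2.43%) and limma-voom called 0, and neither called a member. At an unadjusted p under 0.05 edgeR had 4 members, all higher with setanaxib, or 9.76% of the family beside 8.46% of all genes; 3.76% of all genes were higher and 4.69% lower at that level. DESeq2 had 6 members at that level (14.6%, beside 10.9% of genes) and limma-voom 4 (9.76%, beside 9.58%). The count of 4 in edgeR was 0, 1 and 2 without vehicle replicates 1, 2 and 3, beside 4.88%, 4.74% and 5.62% of genes. It was 3, 5 and 10 without setanaxib replicates 1, 2 and 3, beside 10.1%, 9.91% and 13.6% of genes. The count thus changed with the library left out, and so did the share of all genes. In whole tissue, fewer cells of a type and less RNA per cell cannot be told apart.

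As a family the carriers stayed close to the middle of the table. The median log2 fold change of the 41 members was 0.02, against 0.01 for all genes tested, and the median size of the change, without its sign, was 0.17 against 0.20. Of the 41, 26 had a value above 0 (63.4%, beside 51.6% of genes). Without setanaxib replicate 1, 20 of 42 tested members were above 0, and without setanaxib replicate 3, 29 of 43, beside 49.5% of genes in the latter fit. Leaving out each of the other libraries gave 23 to 26 of 41 to 43. For 11 members (26.8%) every setanaxib library lay on the same side of every vehicle library, beside 17.6% of genes. Of these, 8 were higher with setanaxib (19.5%, beside 8.11%) and 3 were lower (7.32%, beside 9.46%). Without setanaxib replicate 3 the count was 19 of 43 tested members (44.2%, beside 33.8%), with 2 setanaxib libraries set against 3.

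**Figure D1:**
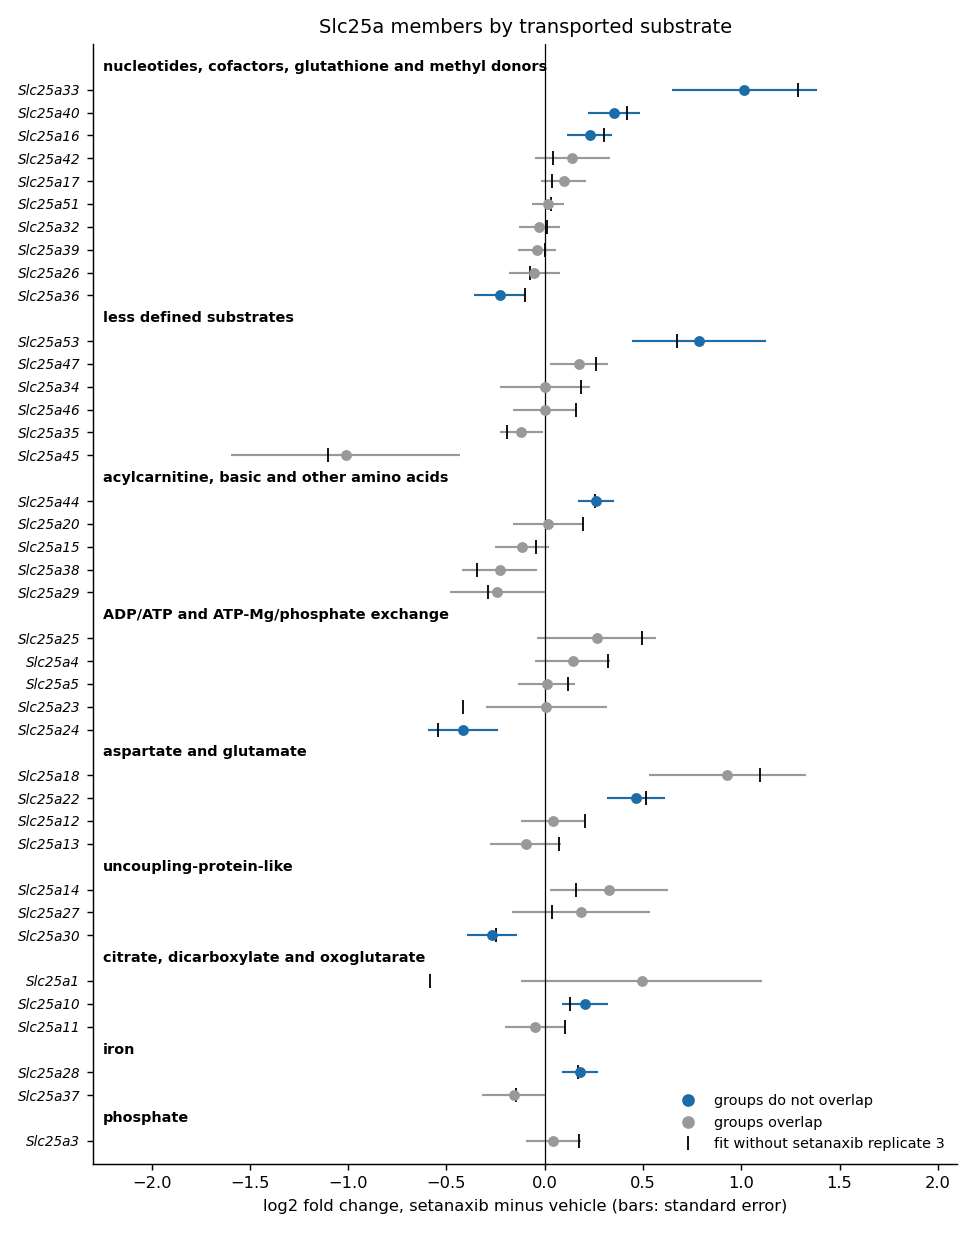
Log2 fold change of setanaxib minus vehicle for 39 of the 41 tested members, grouped by what they carry; points are edgeR estimates from 3 libraries a group, bars their standard errors, and black ticks the estimates without setanaxib replicate 3. Slc25a2, whose standard error was 1.93, is not drawn. Most points lie within 0.5 of 0, and some ticks, among them those of Slc25a1 and Slc25a23, fall on the other side of 0 from their points.

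The family's levels differ by several orders of magnitude, and a few carriers make up most of its RNA. To compare levels between genes, CPM were divided by the length in kilobases of each gene's longest coding transcript. Slc25a4, the main ADP/ATP carrier of heart muscle, averaged 687 CPM per kb over the 6 libraries (range 531 to 866). The phosphate carrier Slc25a3, which feeds phosphate to ATP synthase, followed at 415 CPM per kb (range 344 to 474), and the 2 ranges did not overlap. The oxoglutarate carrier Slc25a11, of the malate-aspartate shuttle, came next at 148 CPM per kb (range 114 to 166) and overlapped Slc25a5, the more widely expressed ADP/ATP carrier, at 107 CPM per kb (range 92.0 to 129.6). Then came the glutathione carrier Slc25a39, the acylcarnitine carrier Slc25a20 and Slc25a34, whose substrate is not settled, at 45.7, 42.2 and 36.5 CPM per kb; their ranges overlapped each other but none reached that of Slc25a5. Below them the ranges of most neighbours in the order overlapped. Slc25a4 and Slc25a3 together held 55.3% to 62.0% of the family's estimated counts in a library.

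At the other end, 4 members were listed at 0 in every library: Slc25a21, which carries oxodicarboxylates, Slc25a41, an ATP-Mg/phosphate carrier, Slc25a48 and Slc25a54. A count of 0 allows up to 3 counts, or 0.0205 to 0.0247 CPM depending on the library, for counting error only. Slc25a31, the ADP/ATP carrier of germ cells, had 39 estimated counts in vehicle replicate 2 and 52 in setanaxib replicate 1 and was listed at 0 in the other 4 libraries. Slc25a43 had 30 in vehicle replicate 2 and 21 in setanaxib replicate 2. These 6 did not pass the filter on low counts. Slc25a2, an ornithine carrier, passed it with only 52 estimated counts in all.

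**Figure D2:**
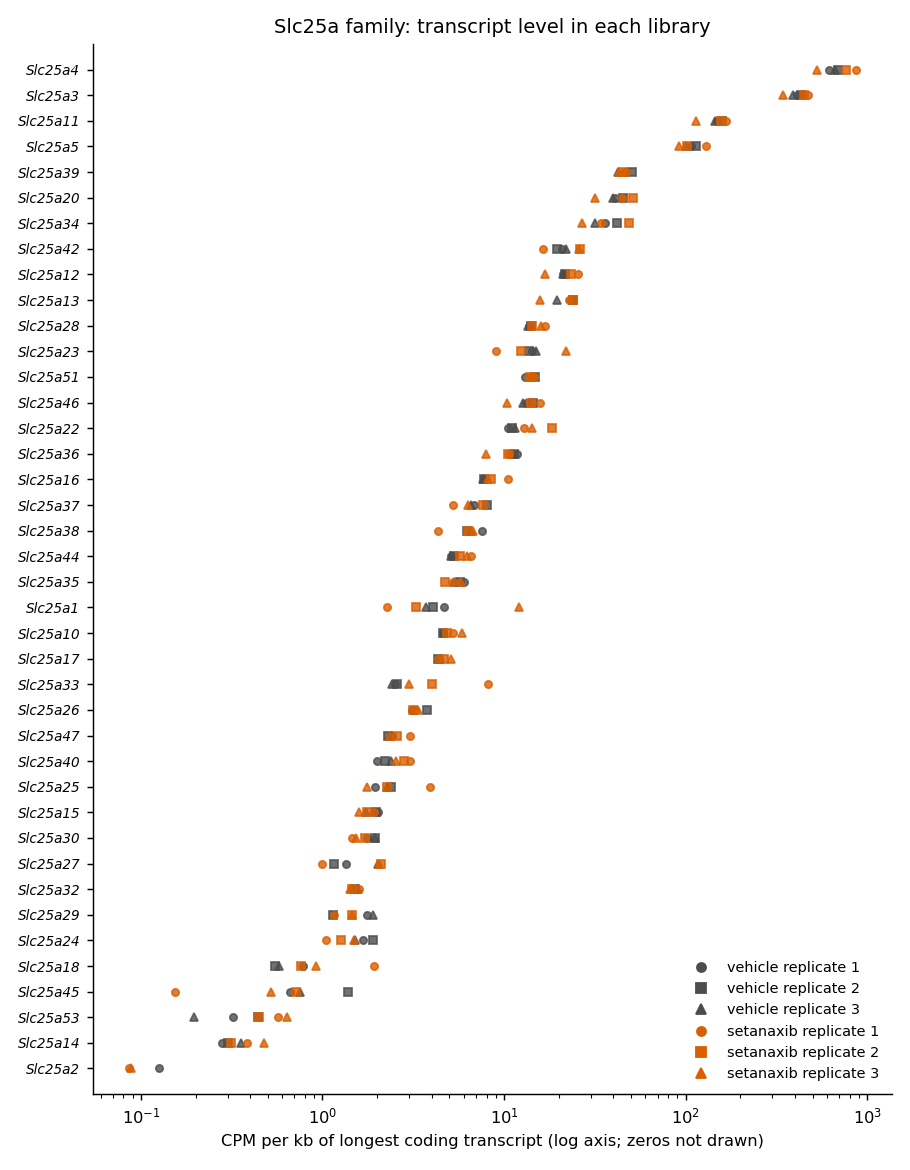
Level of 40 of the 41 tested members in each library, in CPM per kb of the longest coding transcript on a log axis, ordered by mean; grey symbols are vehicle and orange symbols setanaxib libraries. Slc25a4 and Slc25a3 lie above all others in every library, and for most members the orange symbols spread more widely than the grey ones.

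Among carriers of amino acids, Slc25a22, which brings glutamate into the matrix, had the smallest p of the family. It was at 29.4, 30.9 and 32.3 CPM under vehicle and 36.3, 51.7 and 39.8 CPM under setanaxib. All 3 setanaxib libraries were above all 3 vehicle libraries, replicate 2 the highest (log2 fold change 0.46, SE 0.15, edgeR adjusted p = 0.486). Without setanaxib replicate 2 the log2 fold change was 0.30. Its relative Slc25a18, the other glutamate carrier, was at 1.48, 1.05 and 1.10 CPM under vehicle and 3.69, 1.45 and 1.77 CPM under setanaxib. Setanaxib replicate 1 held the high value there and setanaxib replicate 2 lay inside the vehicle range (log2 fold change 0.93, SE 0.40, edgeR adjusted p = 0.611). Without setanaxib replicate 1 the value for Slc25a18 was 0.41. Slc25a44, a carrier of branched-chain amino acids, was at 18.2, 19.0 and 18.2 CPM under vehicle and 23.6, 20.3 and 22.4 CPM under setanaxib. The groups did not overlap, by a small margin over setanaxib replicate 2 (log2 fold change 0.26, SE 0.09, edgeR adjusted p = 0.532).

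The aspartate/glutamate carriers, which drive the malate-aspartate shuttle that passes reducing power into mitochondria, showed no separation. Slc25a12, the form of heart and brain, was at 135, 137 and 134 CPM under vehicle and 163, 148 and 107 CPM under setanaxib. The vehicle libraries had an SD of 1.75 CPM, while setanaxib replicates 1 and 2 lay above them and replicate 3 below (log2 fold change 0.04, SE 0.16, edgeR adjusted p = 0.975). Slc25a13, the form known from liver, averaged 69.3 ± 7.24 CPM under vehicle and 64.8 ± 13.9 CPM under setanaxib (SD, n = 3). The ornithine carrier Slc25a15, the basic amino acid carrier Slc25a29, the glycine carrier Slc25a38 and Slc25a2 had log2 fold changes of -0.12, -0.24, -0.23 and 0.48, all with overlapping groups.

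The acylcarnitine carrier Slc25a20, which admits long-chain fatty acids bound to carnitine for oxidation, was at 72.8, 80.2 and 71.3 CPM under vehicle and 79.0, 91.5 and 56.6 CPM under setanaxib. Its setanaxib libraries lay on both sides of the vehicle range (log2 fold change 0.02, SE 0.18, edgeR adjusted p = 0.992). The enzymes that flank it were read from a list of 5 carnitine shuttle genes, all with a log2 fold change above 0, of which 0 passed and 1 had an unadjusted p under 0.05, beside 8.46% of all genes. That gene was Slc22a5, the plasma membrane carnitine transporter, at 15.5, 15.8 and 15.7 CPM under vehicle and 17.4, 18.8 and 19.8 CPM under setanaxib (log2 fold change 0.25, SE 0.09, edgeR adjusted p = 0.532). Cpt1a, the liver form of carnitine palmitoyltransferase, was at 44.7, 44.4 and 50.3 CPM under vehicle and 44.3, 74.1 and 72.2 CPM under setanaxib (log2 fold change 0.45, SE 0.20, edgeR adjusted p = 0.629). Cpt1b, the muscle form, had a log2 fold change of 0.01 (SE 0.15).

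Among carriers of nucleotides and coenzymes, Slc25a33, a carrier of pyrimidine nucleotides, was at 4.71, 4.85 and 4.56 CPM under vehicle and 15.3, 7.57 and 5.63 CPM under setanaxib. The vehicle libraries had an SD of 0.145 CPM, and every setanaxib library was above them, replicate 1 by far the most (log2 fold change 1.02, SE 0.37, edgeR adjusted p = 0.536). Without setanaxib replicate 1 the log2 fold change was 0.48. Slc25a36, the other pyrimidine nucleotide carrier, was lower with setanaxib, at 61.6, 58.9 and 57.8 CPM under vehicle and 55.7, 54.8 and 41.6 CPM under setanaxib. The groups did not overlap, and setanaxib replicate 3 was the lowest (log2 fold change -0.23, SE 0.13, edgeR adjusted p = 0.699). Without that library the value was -0.10.

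Slc25a40, a glutathione carrier, was at 5.52, 6.11 and 6.64 CPM under vehicle and 8.41, 7.82 and 7.09 CPM under setanaxib. Its groups did not overlap (log2 fold change 0.35, SE 0.13, edgeR adjusted p = 0.550). Slc25a39, its more abundant relative, was at 77.8, 84.9 and 71.5 CPM under vehicle and 79.3, 76.3 and 72.3 CPM under setanaxib, with overlapping groups (log2 fold change -0.04, SE 0.10, edgeR adjusted p = 0.949). Slc25a16, linked to coenzyme A in the matrix, was at 24.4, 24.3 and 24.1 CPM under vehicle and 32.9, 26.6 and 25.7 CPM under setanaxib. The vehicle libraries were nearly equal, and setanaxib replicate 1 was well above the other setanaxib libraries (log2 fold change 0.23, SE 0.12, edgeR adjusted p = 0.672). Without setanaxib replicate 1 the log2 fold change was 0.10. Slc25a42, the carrier of coenzyme A, was at 66.4, 62.4 and 69.8 CPM under vehicle and 52.3, 83.6 and 82.9 CPM under setanaxib. Setanaxib replicate 1 was the lowest of the 6 libraries and the other setanaxib libraries were the highest, so that the log2 fold change of 0.14 (SE 0.19) was 0.33 without replicate 1 (edgeR adjusted p = 0.352).

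The group also holds the S-adenosylmethionine carrier Slc25a26, the folate carrier Slc25a32, the NAD carrier Slc25a51 and the peroxisomal carrier Slc25a17. Their log2 fold changes lay between -0.05 and 0.10, with overlapping groups. Slc25a51 was at 62.0 ± 3.79 CPM under vehicle and 62.7 ± 1.64 CPM under setanaxib (SD, n = 3).

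**Figure D3:**
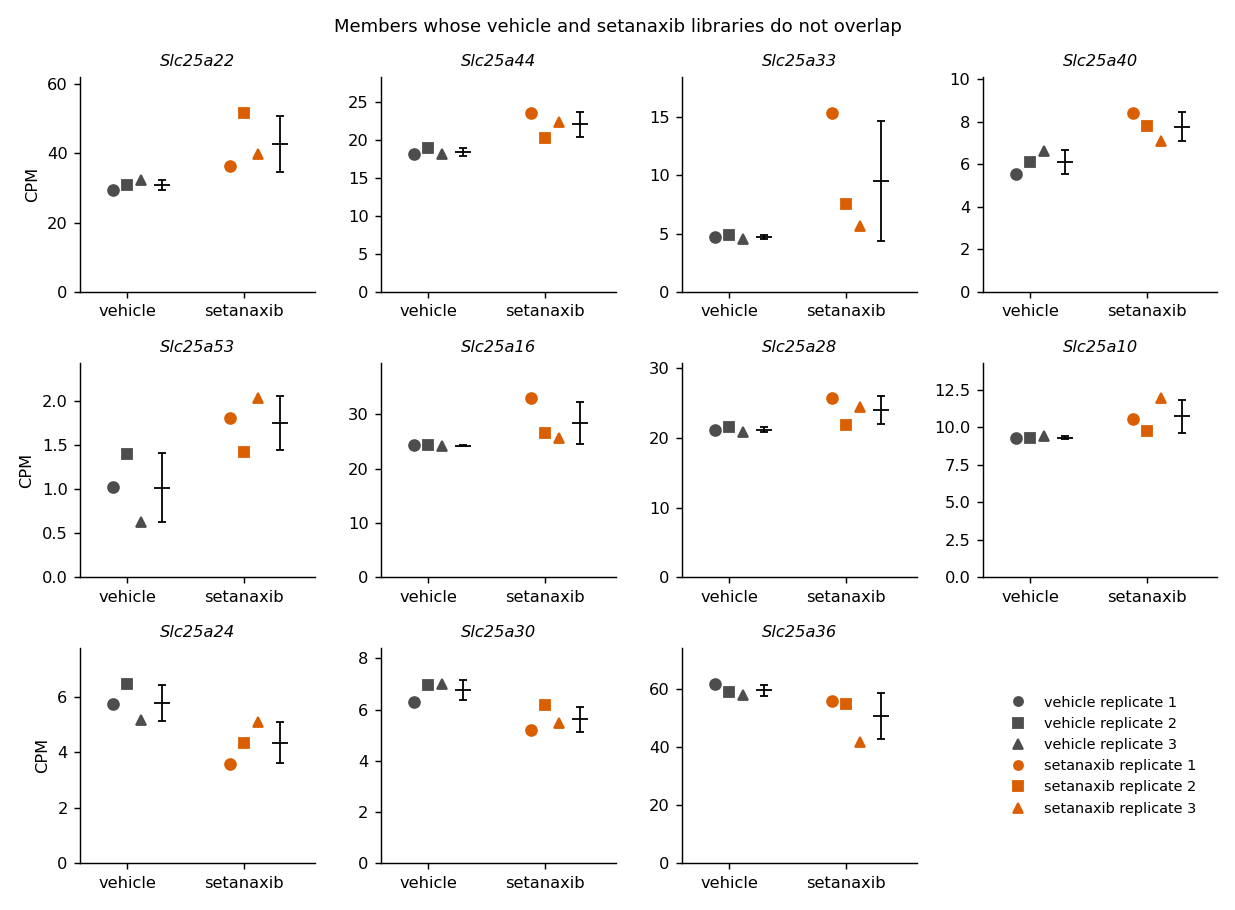
CPM of the 11 members whose vehicle and setanaxib libraries do not overlap, 1 panel each, with every library as a symbol and the mean ± SD of 3 libraries in black; each CPM axis starts at 0. The top 2 rows hold the 8 members that were higher with setanaxib and the bottom row the 3 that were lower, and in the panel of Slc25a33 setanaxib replicate 1 stands far above the other libraries.

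Of the iron carriers, Slc25a28 (mitoferrin 2) was at 21.1, 21.5 and 20.9 CPM under vehicle and 25.6, 21.8 and 24.5 CPM under setanaxib. The groups did not overlap, though setanaxib replicate 2 lay close to the vehicle libraries (log2 fold change 0.18, SE 0.09, edgeR adjusted p = 0.680). Slc25a37 (mitoferrin 1), which supplies iron for haem and is high in red cell precursors, was at 28.3, 33.5 and 27.6 CPM under vehicle and 21.8, 31.9 and 26.3 CPM under setanaxib, with overlapping groups (log2 fold change -0.16, SE 0.16, edgeR adjusted p = 0.856). The red cell genes Hba-a1, Hba-a2, Hbb-bs, Hbb-bt and Alas2 summed to 2763, 5239 and 3642 CPM under vehicle and 3810.3, 4843 and 3299 CPM under setanaxib. In the 6 libraries Slc25a37 was highest in vehicle replicate 2, which also held the highest red cell sum. The lowest values did not match: Slc25a37 was lowest in setanaxib replicate 1 and the red cell sum in vehicle replicate 1. The part of blood in the value of Slc25a37 was not tested.

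Of the ATP-Mg/phosphate carriers, which set the size of the matrix adenine nucleotide pool and respond to calcium, only Slc25a24 had groups that did not overlap. Slc25a24 was at 5.74, 6.47 and 5.17 CPM under vehicle and 3.59, 4.35 and 5.09 CPM under setanaxib. The margin between vehicle replicate 3 and setanaxib replicate 3 was narrow (log2 fold change -0.41, SE 0.18, edgeR adjusted p = 0.612). Slc25a25 averaged 7.77 ± 0.828 CPM under vehicle and 9.34 ± 3.99 CPM under setanaxib (SD, n = 3), with setanaxib replicate 1 at 13.8 CPM. Its log2 fold change of 0.26 (SE 0.30) was -0.14 without that library. Slc25a23 was at 47.7, 46.4 and 50.3 CPM under vehicle and 30.5, 41.4 and 73.4 CPM under setanaxib. Setanaxib replicates 1 and 2 lay below the vehicle libraries and replicate 3 above them (log2 fold change 0.01, SE 0.31). Without setanaxib replicate 3 the log2 fold change was -0.42 (edgeR adjusted p = 0.325).

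Setanaxib replicate 3 set the sign of the citrate carrier too. Slc25a1, which exports citrate for the making of fat, was at 7.76, 6.78 and 6.20 CPM under vehicle and 3.77, 5.43 and 20.0 CPM under setanaxib. Setanaxib replicates 1 and 2 were below every vehicle library and replicate 3 was far above them (log2 fold change 0.49, SE 0.61, edgeR adjusted p = 0.885). Without that library the log2 fold change was -0.58 (edgeR adjusted p = 0.335). In this library Plin1, Cidec, Ucp1 and the atrial markers were at their highest, though none was confined to it. The part of fat or atrial tissue in the values of Slc25a1 and Slc25a23 was not tested. The dicarboxylate carrier Slc25a10 was at 9.28, 9.27 and 9.41 CPM under vehicle and 10.5, 9.77 and 11.9 CPM under setanaxib. Its groups did not overlap (log2 fold change 0.20, SE 0.11, edgeR adjusted p = 0.698), and its highest value again came from setanaxib replicate 3, without which the log2 fold change was 0.13.

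The abundant carriers of energy exchange were also ordered by library. Slc25a4 was at 1178, 1321 and 1274 CPM under vehicle and 1668, 1471 and 1022 CPM under setanaxib. Setanaxib replicates 1 and 2 were the highest of the 6 libraries and replicate 3 the lowest (log2 fold change 0.14, SE 0.19, edgeR adjusted p = 0.899). Slc25a3 was at 659, 692 and 625 CPM under vehicle and 764, 718 and 555 CPM under setanaxib, in the same order within the setanaxib group (log2 fold change 0.04, SE 0.14, edgeR adjusted p = 0.967). Slc25a11 was at 255, 271 and 248 CPM under vehicle and 284, 269 and 195 CPM under setanaxib, again with setanaxib replicate 3 lowest (log2 fold change -0.05, SE 0.15, edgeR adjusted p = 0.962). Without that library the log2 fold changes of Slc25a4, Slc25a3, Slc25a11, Slc25a12 and Slc25a20 were 0.32, 0.17, 0.10, 0.21 and 0.19. The edgeR adjusted p for Slc25a4 was then 0.266, so it did not pass either way.

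Setanaxib replicate 3 was the lowest of the 6 libraries for 13 of the 41 members (31.7%, beside 23.4% of all genes) and the highest for 7 (17.1%, beside 26.3%). The 13 include Slc25a4, Slc25a5, Slc25a3, Slc25a11, Slc25a12, Slc25a13 and Slc25a20. Setanaxib replicate 1 was the highest for 15 (36.6%, beside 24.2%) and the lowest for 9 (22.0%, beside 28.9%). The transcripts of the mitochondrial genome itself took 20.5% of estimated counts in setanaxib replicate 3, the lowest share. In setanaxib replicate 1 they took 30.0%, the highest. Heart muscle markers summed to 41069.7 CPM in setanaxib replicate 3 against 49914 CPM or more elsewhere. Not all 9 markers followed the sum: Myh6 (16357 CPM) and Ryr2 (3452 CPM) lay inside the vehicle range there. Tnnt2, Tnni3, Myl2, Myl3, Pln and, narrowly, Atp2a2 were lowest there. So was Actc1, at 3860 CPM against 7882 CPM or more elsewhere. In 34 of 41 members (82.9%, beside 74.9% of genes) the SD of the setanaxib libraries exceeded that of the vehicle libraries. The part of tissue makeup in these values was not tested.

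Without setanaxib replicate 3, 10 of 43 tested members (23.3%, beside 13.6% of all genes) had an unadjusted edgeR p under 0.05. Of these, 7 were higher and 3 lower with setanaxib, and 0 passed edgeR after adjustment (smallest adjusted p = 0.224). The higher ones were Slc25a4, Slc25a12, Slc25a16, Slc25a18, Slc25a22, Slc25a33 and Slc25a40, and the lower ones Slc25a1, Slc25a23 and Slc25a24. The median log2 fold change of the members was then 0.10, against 0.00 for all genes. Slc25a24 had a log2 fold change of -0.54 in that fit, and Slc25a22 and Slc25a40 were at 0.51 and 0.42.

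**Figure D4:**
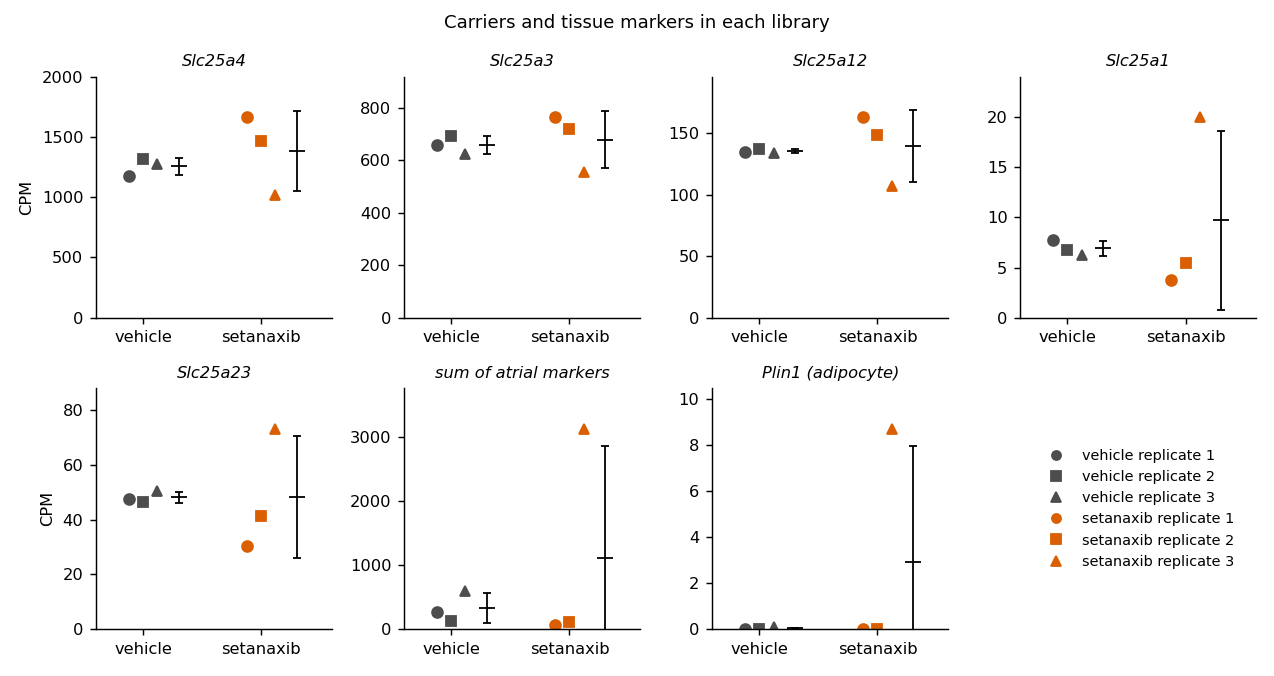
CPM in each library of 5 carriers, of the summed atrial markers and of the adipocyte gene Plin1; symbols are libraries, black bars the mean ± SD of 3 libraries, cut at 0 where they would pass below it. Setanaxib replicate 3 (orange triangle) is the lowest for Slc25a4, Slc25a3 and Slc25a12 and the highest for Slc25a1, Slc25a23 and both markers.

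Among carriers that resemble uncoupling proteins, Slc25a30 was at 6.30, 6.97 and 7.0 CPM under vehicle and 5.19, 6.17 and 5.49 CPM under setanaxib. The groups did not overlap, and setanaxib was the lower (log2 fold change -0.27, SE 0.13, edgeR adjusted p = 0.648). Its relatives Slc25a14 and Slc25a27 had log2 fold changes of 0.33 and 0.18 with overlapping groups. Of the members whose substrate is less settled, Slc25a53 was a low transcript at 1.03, 1.40 and 0.625 CPM under vehicle and 1.81, 1.43 and 2.03 CPM under setanaxib. The groups were barely apart, with setanaxib replicate 2 next to vehicle replicate 2 (log2 fold change 0.78, SE 0.34, edgeR adjusted p = 0.615). Slc25a34 was at 95.8, 112 and 84.7 CPM under vehicle and 91.1, 129.7 and 71.9 CPM under setanaxib, on both sides of the vehicle range (log2 fold change 0.00, SE 0.23). Slc25a45 had the lowest log2 fold change of the family, -1.01 (SE 0.58), but setanaxib replicate 2 lay inside the vehicle range. The value was -0.60 without setanaxib replicate 1 and -0.62 without vehicle replicate 2. Slc25a46, a protein of the outer membrane, Slc25a35 and Slc25a47 had log2 fold changes of 0.00, -0.12 and 0.17, with overlapping groups.

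Close relatives that carry the same substrate were also read against each other, as ratios of CPM per kb; these 6 pairs were chosen after the values were seen and are described without a test. Slc25a33 over Slc25a36, the pyrimidine nucleotide carriers, was 0.212, 0.228 and 0.218 under vehicle and 0.763, 0.382 and 0.375 under setanaxib. The groups could not overlap, because Slc25a33 was higher and Slc25a36 lower in every setanaxib library than in every vehicle library. This ratio therefore restates the values given above, and setanaxib replicate 1 was the highest. Slc25a39 over Slc25a40, the glutathione carriers, was 23.3, 23.0 and 17.8 under vehicle and 15.6, 16.1 and 16.8 under setanaxib, also without overlap and lower with setanaxib. Slc25a4 over Slc25a5, the ADP/ATP carriers, was 5.74, 6.03 and 6.60 under vehicle and 6.69, 7.54 and 5.77 under setanaxib, so the heart form led in every library and the groups overlapped. Slc25a12 over Slc25a13 lay between 0.909 and 1.13. The ratios of the glutamate carriers (Slc25a22 over Slc25a18) and of the mitoferrins (Slc25a28 over Slc25a37) overlapped between the groups too.

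The proteins that work beside the carriers were read from 5 lists with 36 tested genes in all, of which 0 passed edgeR and 3 had an unadjusted p under 0.05, all higher with setanaxib: Ucp2, Sfxn5 and Slc22a5. Of all genes tested, 8.46% reached that level. Ucp2, an uncoupling protein of this family under another name, was at 142, 160.1 and 144 CPM under vehicle and 311, 190.0 and 579 CPM under setanaxib (log2 fold change 1.27, SE 0.39, edgeR adjusted p = 0.464). All setanaxib libraries were above all vehicle libraries, the highest being setanaxib replicate 3, where Plin1 and the atrial markers were highest too. The part of fat or atrial tissue in the values of Ucp2 was not tested. DESeq2 called Ucp2 (adjusted p = 0.0262); without setanaxib replicate 3 its edgeR log2 fold change was 0.76 (adjusted p = 0.266). Ucp3, the form of muscle, was at 16.9, 17.8 and 18.3 CPM under vehicle and 19.6, 63.6 and 25.8 CPM under setanaxib, with setanaxib replicate 2 far above the rest (log2 fold change 1.04, SE 0.43, edgeR adjusted p = 0.594). Sfxn5, a sideroflexin of the inner membrane, was at 5.35, 4.80 and 6.15 CPM under vehicle and 6.85, 6.89 and 6.96 CPM under setanaxib (log2 fold change 0.34, SE 0.14, edgeR adjusted p = 0.569).

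The porins, pyruvate carrier subunits and sideroflexins had 5 of 10 genes higher and 5 lower, with a median log2 fold change of 0.03; without setanaxib replicate 3, 8 of 10 were higher (median 0.14). Genes for the import of carriers into the inner membrane, the Tim and Tom proteins and Agk, had 10 of 13 lower (median -0.11). Without setanaxib replicate 3 the median of these import genes turned to 0.08, with 6 of 13 lower. The 4 enzymes of the malate-aspartate shuttle, Got1, Got2, Mdh1 and Mdh2, were all above 0 by 0.02 to 0.08 on the log2 scale. Without setanaxib replicate 3, an unadjusted p under 0.05 was reached by 11 of the 36 genes (8 higher, 3 lower), beside 13.6% of all genes, and 0 passed after adjustment. Got1, Got2 and Mdh2 were then at 0.27, 0.19 and 0.17 on the log2 scale, and the sideroflexins Sfxn1 and Sfxn3, the 2 of their list below 0, at -0.58 and -0.62. The other genes at that level were Ucp2, Ucp3, Vdac3, Tomm20 and Crat (0.76, 1.23, 0.23, 0.42 and 0.25) and Mtch1 (-0.18). These counts were added after the data were seen. Markers of other cells were read beside these values: 8 macrophage markers summed to 225, 279.5 and 223 CPM under vehicle and 151, 179 and 158 CPM under setanaxib, without overlap, and 7 fibroblast markers to 1183, 894 and 1195 CPM under vehicle and 551, 729 and 928 CPM under setanaxib, with overlap. All 7 fibroblast markers had a log2 fold change below 0, and 4 of them, Col1a1, Col3a1, Pi16 and Mfap5, had groups that did not overlap and an unadjusted p under 0.05 (-0.92, -0.94, -0.88 and -0.87 on the log2 scale); edgeR called 0 of the 7 after adjustment and DESeq2 called 2. Of the 8 macrophage markers, all lower, 7 had an unadjusted p under 0.05, and edgeR called 0 and DESeq2 4. Of all genes tested, 4.69% were lower at an unadjusted edgeR p under 0.05 and 9.46% were lower without overlap. DESeq2 called 2.43% of genes. Of 6 endothelial markers 5 had a log2 fold change below 0, and of 7 smooth muscle and pericyte markers 6. Over all genes 51.6% were above 0. Among these markers Kdr, Cspg4 and Pdgfrb were lower without overlap (-0.64, -0.58 and -0.54 on the log2 scale), and edgeR called 0 after adjustment. The part of these cells in the carriers' values was not tested.

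Some of these values carry a limit from the counting. In the GENCODE M21 annotation 23 of the 47 members overlap another gene, among them Slc25a3, Slc25a10, Slc25a11, Slc25a12, Slc25a16, Slc25a18, Slc25a23, Slc25a33, Slc25a36, Slc25a37, Slc25a39 and Slc25a53, and the sources used here do not say whether reads were counted by strand. Close relatives such as Slc25a4 and Slc25a5 may also share reads.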

How the data were processed

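The 6 heart libraries comprise 3 of vehicle and 3 of setanaxib mice. The values the authors deposited are estimated counts for each gene, whole already and unscaled, so none was rounded. The submitters' processing notes list GRCm39 with DESeq2 1.42.0, featureCounts 2.0.1, STAR 2.5.4b and FastQC 0.11.9, but tie none of them to a step. Row and column names follow StringTie's count script, per the file headers. Raw counts had been assumed when the tests were chosen; the tests were kept. The sources used here do not say how reads matching several places were treated.

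Genes passing edgeR's filterByExpr (minimum count 10) were scaled by TMM and tested with edgeR 4.0.16 (quasi-likelihood F test, two-sided, Benjamini-Hochberg over 20472 genes, threshold 0.05) in R 4.3.3. Standard errors come from the F statistic. DESeq2 1.42.0, limma-voom (limma 3.58.1), other scaling, no filter and leaving out each library were tried; the tests were checked on simulated data. No library pair matched within sampling noise. Library sizes of 110803307 to 154003318 leave the spread between libraries, not counting error, as the main limit.

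Replicates were numbered in record order and pair no libraries. Values in each library are given for members with an unadjusted p under 0.05, with groups that do not overlap, with the highest CPM of their role, or whose log2 fold change moves over 1.5 times without a library while p is under 0.05: 22 members in all, with Slc25a18 added after its values were seen. The members and lists were chosen with earlier results of these data known. All 47 identifiers matched GENCODE M21, on GRCm38, by symbol too; it gave lengths and overlaps only. The values of 1 tested member and the name of the 1 gene called are not reported here.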

Additional observations from a re-analysis of the deposited data

How the results depend on the processing

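No member passed under any of the 11 alternatives run. Over the whole table DESeq2 called 494 genes and limma-voom 0, against 1 with edgeR; leaving out single libraries gave 0 to 1, the 0 without each vehicle replicate. It gave 0 to 10 members at an unadjusted p under 0.05, against 4, the lowest without vehicle replicate 1 and the highest without setanaxib replicate 3. The share of all genes at that level was 4.74% to 13.6% in these fits, against 8.46%. Members with groups that do not overlap numbered 12 to 19 of 41 to 43 tested in these fits, against 11, the highest without setanaxib replicate 3; the share of all genes without overlap was 23.2% to 33.8% in them, against 17.6%. The median log2 fold change of the members was -0.014 to 0.10 over these fits, highest without setanaxib replicate 3 and 0.057 without vehicle replicate 2. Of the 22 named members, signs turned only for values near 0 or set by 1 library. Slc25a34 was at -0.00086 with DESeq2, -0.032 with limma-voom, -0.00086 with DESeq2 size factors, -0.0036 without mitochondrial genome genes and -0.00020 without a filter. With limma-voom Slc25a20 was at -0.0080 and Slc25a23 at -0.088. Leaving out single libraries gave -0.14 to 0.19 for Slc25a20, -0.018 to 0.32 for Slc25a4, -0.091 to 0.21 for Slc25a12, -0.16 to 0.10 for Slc25a11, -0.26 to 0.18 for Slc25a34, -0.10 to 0.025 for Slc25a39, -0.055 to 0.17 for Slc25a3, -0.58 to 0.87 for Slc25a1 and -0.42 to 0.25 for Slc25a23; the cause was not tested. No paired analysis was possible because the titles carry 6 different library numbers, none shared between the groups. Depth limits the values of Slc25a2 and of the 6 members not tested.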
